A study of Mus musculus with 20 samples.

Results

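The genes described here are 10 secreted regulators of Wnt signalling whose messages were measured in mouse colonic organoid (colonoid) cultures: the ligands Wnt2b, Wnt4, Wnt5a, Wnt6 and Wnt7b, the R-spondins Rspo1 and Rspo3, and the inhibitors Sfrp1, Dkk2 and Dkk3. They were chosen by name from 35240 genes, with the transcripts of each symbol summed, and all 10 were found. Colonoids are epithelial structures grown from colonic crypts in Matrigel. The groups were wildtype (WT) and Tnfr2-/- cultures, the latter from mice lacking TNF receptor 2 (gene Tnfrsf1b) in the whole body, sampled 1, 2, 3, 5 or 7 days after passage. Per genotype there were 2 mice, as read from the replicate numbers of the labels, each giving 1 library per day, and so 20 libraries in 10 groups of 2. Per the study's methods, colonoids came from mice 8 weeks old and of both sexes. Cultures of both genotypes were grown in IntestiCult medium. The methods give 5 passages for cultures that were seeded or sequenced as single cells, and state no passage number for the cultures described here. The methods name CHIR99021, an inhibitor of GSK3 that stabilises beta-catenin, for cultures seeded as single cells, whereas the cultures sequenced here were not dissociated that far, and no addition of CHIR99021 is described for them. The question was which of these genes moved with fibroblast genes and which with epithelial genes, and how each differed between genotypes and over days.

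Wnt ligands are lipid-modified proteins that act over short distances through Frizzled receptors and LRP co-receptors, and by one branch they stabilise beta-catenin. R-spondins bind LGR receptors and keep the ligases RNF43 and ZNRF3 from removing Frizzled, which raises the response to a Wnt ligand. SFRP proteins bind Wnt ligands outside the cell, while several DKK proteins act on the co-receptor LRP. In the colon, mesenchymal cells around the crypt are a known source of R-spondins and of several Wnt ligands, and the epithelium carries the receptors.

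Values are TPM, a length-corrected measure of transcript abundance, after division by a size factor per library, called normalised TPM here. Each library had 13007 to 13469 genes at 1 or more, and the mice of a group correlated across genes at a Pearson r of 0.923 to 0.956. The read depth of single libraries is unknown, so that the counting error of genes at a few units cannot be given. Nothing in the labels says that the mice were handled on separate days, and p-values measure the spread between these libraries. The targeted gene, Tnfrsf1b, averaged 15.3 ± 3.09 (SD, n = 10) in WT and 5.80 ± 2.84 (SD, n = 10) in Tnfr2-/- libraries, with no overlap within a day. Its fitted log2 fold change was -1.35 (SE 0.167, adjusted p = 9.72e-05, limma, and 0.119 on means per mouse). The difference was -1.72 on the early days (adjusted p = 0.000116) and -0.79 on the late days (adjusted p = 0.0323), and the change between them was not called (adjusted p = 0.182). Within Tnfr2-/- cultures Tnfrsf1b rose late against early by 1.02 (adjusted p = 0.00191), from 4.19 and 2.71 on day 1 to 7.84 and 11.45 on day 7.

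The cultures held both epithelial and fibroblast transcripts. Krt8, an epithelial keratin, averaged 5089 ± 934 (SD, n = 20), and Pdgfra, a receptor of mesenchymal cells, averaged 53.9 ± 19.4 (SD, n = 20). The summed level of 24 fibroblast markers ran from 2323 to 8382 in WT and from 5166 to 14690 in Tnfr2-/- libraries. That of 20 epithelial markers ran from 14250 to 24000 and from 16890 to 23270. None of the fibroblast or epithelial markers was at 0 throughout. The 8 immune markers summed to between 8.53 and 21.0 in WT and between 17.3 and 48.4 in Tnfr2-/- libraries, and the 2 above the filter, Cd68 and Csf1r, were both higher in Tnfr2-/- cultures over all days (1.13, adjusted p = 0.000449, and 0.76, adjusted p = 0.0285). Of the 20 epithelial markers 4 were higher over all days and 0 lower, Cdh1, Cldn4, Elf3 and Epcam, where 7.6% of all genes tested were called. The 8 squamous epithelial markers summed to between 405 and 2509 in WT and between 592 and 2390 in Tnfr2-/- libraries, of which Krt14 alone averaged 1152 ± 687 (SD, n = 20). Those below the filter were Trp63 at 0.0222 (at 0 in 18 of 20 libraries), Krt5 at 0.372 (at 0 in 10) and Ivl at 0.541. Of the 5 squamous markers tested, Krt13 was higher over all days, and Krt13 and Sprr1a were higher on the late days, where 6.45% of all genes were called. The 6 endothelial markers summed to at most 5.48, with the defining gene Emcn at 0. Whether cells of these other types were present or took part in the results was not tested. In bulk cultures, a change in the number of cells of a type and a change in message per cell cannot be told apart.

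The fibroblast markers did not move alike in the mice. A score per library, the mean z-score of the 24 genes, fell in WT mouse 1 from 0.183 on day 1 to -1.61 on day 5 and -1.01 on day 7, while in WT mouse 2 it stayed between 0.137 and 0.595. In Tnfr2-/- mouse 1 it lay between -0.458 and -0.103 until day 5 and reached 1.21 on day 7. In Tnfr2-/- mouse 2 it ran from 0.224 on day 1 to 1.495 on day 7. WT mouse 1 thus carried the least fibroblast signal at the late days, and both Tnfr2-/- mice carried the most on day 7.

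**Figure D1:**
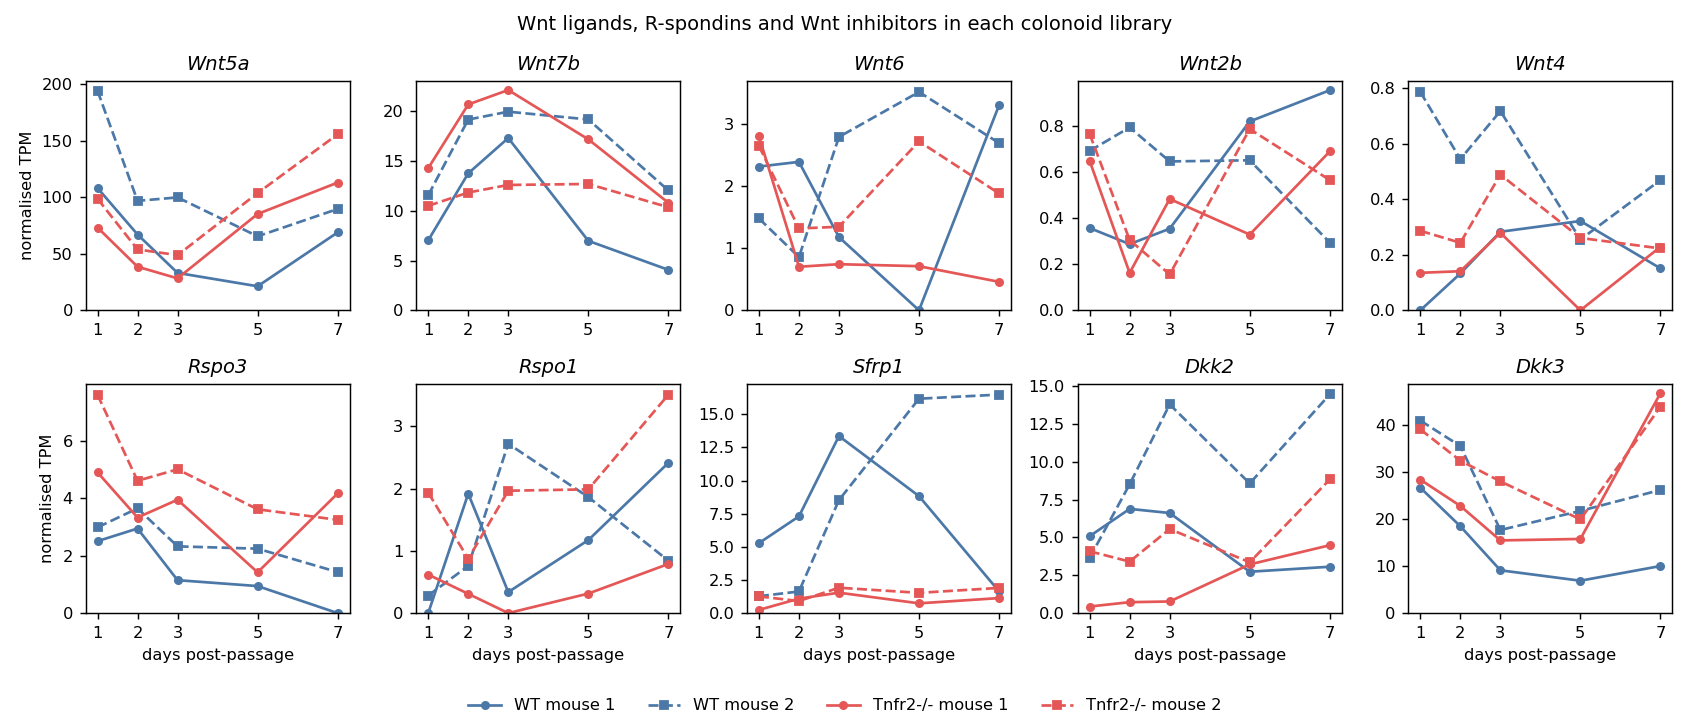
Normalised TPM of the 10 genes in each of the 20 libraries against days post-passage, with 1 line per mouse (blue, WT; red, Tnfr2-/-; circles and solid lines, mouse 1; squares and dashed lines, mouse 2). Axes start at 0 and differ in scale between genes. Sfrp1 stayed at or below 1.92 in all Tnfr2-/- libraries, and Wnt5a fell after day 1 in all 4 mice but ended highest in the Tnfr2-/- mice.

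The level of the 10 genes covered a wide range. Wnt5a was the most abundant, at 82.2 ± 42.6 (SD, n = 20), followed by Dkk3 at 25.2 ± 11.7 and Wnt7b at 13.7 ± 4.98. Dkk2, Sfrp1 and Rspo3 averaged 5.41 ± 3.89, 4.64 ± 5.32 and 3.10 ± 1.74. Wnt6, Rspo1, Wnt2b and Wnt4 followed at 1.79 ± 1.04, 1.23 ± 0.994, 0.537 ± 0.240 and 0.297 ± 0.210. Wnt5a exceeded Dkk3 in all 20 libraries, and this was the only step in the order where the means stood apart by more than their SDs. Wnt2b and Wnt4 stayed below 1 in every library and were not tested. The other 8 passed the filter of a mean of at least 1, among 13539 genes tested.

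Over all days, 2 of the 8 genes tested differed between genotypes, against 7.6% of all genes tested. Sfrp1 was lower and Rspo3 was higher in Tnfr2-/- cultures. On the early days (1 to 3) 0 of 8 passed, against a background of 1.2%, and 4 of 8 had an unadjusted p under 0.05, as had 1746 of the 13539 genes tested. Over all days and on the late days this count was also 4 of 8, beside 3023 and 3094 genes. On the late days (5 and 7) 1 of 8 passed, Sfrp1, against 6.45%. For the late minus the early genotype difference 0 of 8 passed, against 0.148%, and Wnt5a alone, 1 of 8, had an unadjusted p under 0.05, as had 1583 of the 13539 genes. The median log2 fold change over all days was -0.03 for the 8 genes and -0.03 for all genes. Among all genes called over all days, 611 were higher and 418 lower, and with each library rescaled to the same sum the split was 426 to 724, whereas both of the 2 genes kept their direction and their call.

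**Figure D2:**
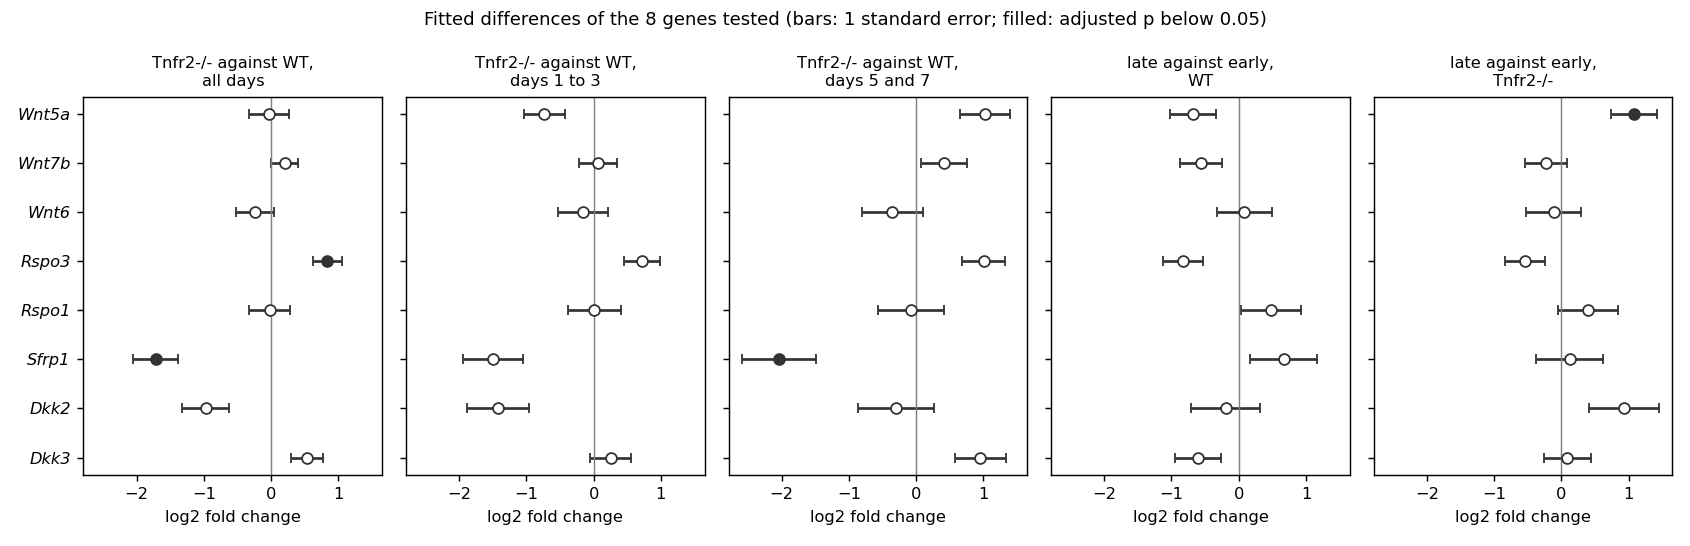
Fitted log2 fold changes on the log2(normalised TPM + 1) scale of the 8 genes tested, in 5 comparisons, with bars of 1 standard error. Filled points passed an adjusted p of 0.05. Filled points are Sfrp1 and Rspo3 over all days, Sfrp1 on days 5 and 7, and Wnt5a late against early in Tnfr2-/- cultures.

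Among the ligands, Wnt5a (chr14:28504750-28527448, plus strand, GRCm38) is known mainly for signalling that does not run through beta-catenin. In WT mouse 1 its level on days 1, 2, 3, 5 and 7 was 108, 67.1, 33.1, 21.3 and 68.9. In WT mouse 2 it was 194, 96.9, 99.9, 65.5 and 89.6. Both WT mice were therefore highest on day 1 and lowest on day 5. The levels of Tnfr2-/- mouse 1 were 73.2, 38.6, 28.3, 85.2 and 113.0, and those of Tnfr2-/- mouse 2 were 98.7, 53.9, 48.8, 103.7 and 155.7. Both Tnfr2-/- mice were lowest on day 3 and highest on day 7. Both Tnfr2-/- mice lay below both WT mice on 2 of 5 days (1 and 2) and above both on 2 of 5 days (5 and 7). How many of all genes stood apart on as many days was not counted, here or for the genes below.

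Late against early, Wnt5a rose in Tnfr2-/- cultures by 1.08 on the log2 scale (SE 0.343, adjusted p = 0.0404, limma), where it was the 1 of 8 genes that passed, against a background of 20.3%. Without the mouse as a block, 0 of 8 genes passed in WT cultures, against 20.1%, and Rspo3 alone of the 8 had an unadjusted p below 0.05, as had 4515 of the 13539 genes. When the mouse was fitted as a block, so that days were compared within an animal, 4 of 8 passed in WT, against 24.9% of all genes in that fit, and all 4 were lower late. On means per mouse Wnt5a alone of these 4 was called (adjusted p = 0.0211). Wnt5a fell by 0.68 (adjusted p = 0.183, and 0.0138 with the block). In the mean of the late minus that of the early days, WT mouse 1 and WT mouse 2 stood at -0.68 and -0.68, and Tnfr2-/- mouse 1 and mouse 2 at 1.17 and 0.98. The difference between the genotypes in this change was 1.76 (SE 0.485), with an adjusted p of 0.182, or 0.0938 with the block, and so was not called. Without the WT mouse 2 library of day 5 it was 2.15 (adjusted p = 0.0447), and the change in WT was then -1.08 (adjusted p = 0.0399). The genotype difference itself was -0.73 early (SE 0.306, adjusted p = 0.328, and 0.0395 without WT mouse 1, at -1.22) and 1.03 late (SE 0.375, adjusted p = 0.124, and 0.0272 without that library, at 1.42, and 0.00789 without WT mouse 2, at 1.51), and over all days it was -0.03 (SE 0.296, adjusted p = 0.970). In the opposite direction, the early difference shrank to -0.24 without WT mouse 2, the late one to 0.54 without WT mouse 1, and the change in WT to -0.29 without the WT mouse 1 library of day 5, where the difference of the changes was 1.36.

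Part of the fibroblast markers rose on the same days. In Tnfr2-/- cultures 7 of 24 rose late against early and 0 fell, against the 20.3% of all genes called, among them Col1a1, a fibrillar collagen, by 1.12 (adjusted p = 0.0272), and in WT cultures 2 rose and 2 fell. Pdgfra and Acta2 were not called in either genotype. With the fibroblast score as a covariate, the late change of Wnt5a in Tnfr2-/- cultures was 0.55 (adjusted p = 0.0896), and its early genotype difference was -0.81 (adjusted p = 0.0274). The call in Tnfr2-/- cultures was lost in 9 of 20 fits that left out 1 library, each a Tnfr2-/- library (all but mouse 2 on day 3), with log2 fold changes from 0.95 to 1.20 and an adjusted p of up to 0.138, and without Tnfr2-/- mouse 1 (0.98, adjusted p = 0.446) or mouse 2 (1.17, adjusted p = 0.331). The adjusted p was 0.00104 with the mouse as a block and 0.00863 on means per mouse. The call was also lost with no filter on low values (adjusted p = 0.0816), with libraries rescaled to the same sum (0.0601) and with quantile normalization (0.0569).

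Most of the Wnt5a signal came from 2 coding transcripts that begin at different promoters. Wnt5a-202, which starts at position 28511405, held 60.7% of the sum of the gene, and Wnt5a-201, which starts at position 28504750, held 22.9%. The share of Wnt5a-202 was 60.2% ± 5.99 in WT and 62.5% ± 6.99 in Tnfr2-/- libraries (SD, n = 10), and that of Wnt5a-201 was 21.3% ± 3.79 and 24.1% ± 3.84, so that neither share differed by more than its SD. The first 90 coding bases of both are shown because the transcripts differ in where translation begins. Capitals mark the 60 bases that only Wnt5a-201 codes for, from position 28506109, and the shared coding sequence begins at position 28511877 (GENCODE M21, GRCm38, plus strand).
Wnt5a-201: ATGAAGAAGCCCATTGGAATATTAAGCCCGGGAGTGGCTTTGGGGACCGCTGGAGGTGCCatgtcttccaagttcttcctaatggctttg
Wnt5a-202: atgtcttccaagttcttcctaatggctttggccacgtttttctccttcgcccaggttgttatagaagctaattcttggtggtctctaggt
Wnt5a-201 thus reads into the same frame from an upstream start codon, and its coding sequence is 1143 bases long against 1083 for Wnt5a-202. The division of reads between transcripts that share exons is an estimate of the authors' pseudoaligner.

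Wnt7b (chr15:85535437-85582473, minus strand), a ligand made in epithelia of several organs, followed another course. Over the 5 days it stood at 7.04, 13.8, 17.3, 6.99 and 4.07 in WT mouse 1, and at 11.6, 19.2, 20.0, 19.2 and 12.1 in WT mouse 2. Tnfr2-/- mouse 1 held 14.3, 20.7, 22.2, 17.2 and 10.8, and Tnfr2-/- mouse 2 held 10.5, 11.9, 12.6, 12.7 and 10.4. The peak fell on day 3 in 3 mice and on day 5 in Tnfr2-/- mouse 2, where days 3 and 5 differed by little. The genotypes overlapped on every day, and the difference over all days was 0.21 (SE 0.201, adjusted p = 0.587). Late against early, Wnt7b fell by 0.57 in WT (adjusted p = 0.229, 0.0478 in the blocked fit and 0.190 on means per mouse), while the value in Tnfr2-/- cultures was -0.22 (adjusted p = 0.675). In WT the change was -1.03 in mouse 1 and -0.10 in mouse 2. Its transcripts Wnt7b-202 and Wnt7b-205, which start at 85581582 and 85582473, held 54.6% and 33.1% of its sum. The share of Wnt7b-202 in single libraries ran from 1.49% to 100%, so that no transcript of Wnt7b is compared here.

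The remaining ligands were low. Wnt6 (chr1:74771892-74785322, plus strand) ran from 0 to 3.52 in WT and from 0.459 to 2.81 in Tnfr2-/- libraries, with a difference over all days of -0.24 (SE 0.278, adjusted p = 0.667). Of its sum, 43.7% came from Wnt6-202, a transcript with a retained intron that codes for no protein. Wnt2b (chr3:104945272-104961921, minus strand), a ligand of the mesenchyme that supports intestinal stem cells, ran from 0.287 to 0.955 in WT and from 0.156 to 0.787 in Tnfr2-/- libraries. Wnt4 (chr4:137277489-137299726, plus strand) ran from 0 to 0.786 and from 0 to 0.488. WT mouse 2 averaged 0.554 ± 0.211 and WT mouse 1 averaged 0.178 ± 0.128 for Wnt4 (SD, n = 5 days), while the Tnfr2-/- mice averaged 0.300 ± 0.108 and 0.157 ± 0.107. Wnt4 lies 7.91 Mb and Rspo1 20.2 Mb from Tnfrsf1b on chromosome 4, and the part of sequence linked to the deleted gene was not tested.

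Of the R-spondins, Rspo3 (chr10:29452416-29535867, minus strand) is the family member best known from crypt mesenchyme. Its level on the 5 days was 2.51, 2.95, 1.15, 0.942 and 0 in WT mouse 1 and 2.99, 3.65, 2.33, 2.25 and 1.43 in WT mouse 2. Tnfr2-/- mouse 1 stood at 4.91, 3.33, 3.95, 1.42 and 4.17, and Tnfr2-/- mouse 2 at 7.61, 4.61, 5.01, 3.62 and 3.25. Both Tnfr2-/- mice lay above both WT mice on 3 of 5 days (1, 3 and 7), and pooled over days the ranges of the genotypes overlapped. Means were 2.02 ± 1.12 in WT and 4.19 ± 1.59 in Tnfr2-/- libraries (SD, n = 10).

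The fitted difference of Rspo3 over all days was 0.83 (SE 0.215, adjusted p = 0.0255, limma). With the mouse as a correlated block the adjusted p was 0.0563, and on means per mouse, 2 against 2, it was 0.427. A pseudocount of 0.1 gave a difference of 1.33 that was not called (adjusted p = 0.0813). The call was lost in 5 of 20 fits without 1 library, namely WT mouse 1 on day 3, Tnfr2-/- mouse 1 on day 7 and Tnfr2-/- mouse 2 on days 3, 5 and 7 (log2 fold changes 0.76 to 0.80, adjusted p up to 0.0524), and without WT mouse 1 (0.53, adjusted p = 0.199), Tnfr2-/- mouse 1 (1.02, adjusted p = 0.0697) or Tnfr2-/- mouse 2 (0.65, adjusted p = 0.353). On the late days the difference was 1.00 (SE 0.325, adjusted p = 0.0874), and it was called without WT mouse 2 (1.51, adjusted p = 0.0202) or without its library of day 7 (1.32, adjusted p = 0.0339), while without WT mouse 1 it was 0.50. Dcn, Fbln2, Thy1, Twist1, Twist2 and Vim, 6 of the 24 fibroblast markers, were higher in Tnfr2-/- cultures over all days and 0 were lower, beside the 2 immune and 4 epithelial markers named above and the 7.6% of all genes called. With the fibroblast score as a covariate the difference of Rspo3 was 0.55 (adjusted p = 0.0729). The late minus the early mean of Rspo3 was below 0 in all 4 mice, at -1.15 and -0.49 in WT mouse 1 and WT mouse 2 and at -0.51 and -0.58 in Tnfr2-/- mouse 1 and mouse 2. In WT the fitted change was -0.82 (adjusted p = 0.0664, 0.0230 in the blocked fit and 0.105 on means per mouse). It was called without the WT mouse 2 library of day 5 (-1.01, adjusted p = 0.0488) or day 7 (-1.14, adjusted p = 0.0160), and it was -0.49 without WT mouse 1. In Tnfr2-/- cultures the change was -0.54 (adjusted p = 0.228, and 0.00786 with the fibroblast score as a covariate, where it was -0.96).

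Rspo1 (chr4:124986430-125009099, plus strand), another R-spondin, was low. It ran from 0 to 2.72 in WT and from 0 to 3.51 in Tnfr2-/- libraries, with 9 of 20 libraries at 1 or more. The difference over all days was -0.02 (SE 0.302, adjusted p = 0.976). Tnfr2-/- mouse 2 averaged 2.05 ± 0.940 and Tnfr2-/- mouse 1 averaged 0.406 ± 0.306 (SD, n = 5 days), whereas the WT mice averaged 1.17 ± 1.02 and 1.29 ± 0.984.

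Of the inhibitors, Sfrp1 (chr8:23411502-23449632, plus strand) is a secreted protein with a Frizzled-like domain that binds Wnt ligands. In WT mouse 1 it stood at 5.28, 7.30, 13.4, 8.83 and 1.64 on the 5 days, and in WT mouse 2 at 1.27, 1.63, 8.53, 16.2 and 16.5. Tnfr2-/- mouse 1 showed 0.242, 1.09, 1.54, 0.737 and 1.13, and Tnfr2-/- mouse 2 showed 1.26, 0.911, 1.92, 1.53 and 1.90. The WT mice were high at different times, mouse 1 on days 1 to 5 and mouse 2 on days 3 to 7, while the Tnfr2-/- mice stayed low throughout. On 4 of 5 days both Tnfr2-/- mice lay below both WT mice, on day 1 by a narrow margin, the exception being day 7, when WT mouse 1 was at 1.64 and Tnfr2-/- mouse 2 at 1.90. The gene has 1 transcript in the table.

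Sfrp1 differed over all days by -1.72 (SE 0.332, adjusted p = 0.00468, limma), with means of 8.05 ± 5.80 in WT and 1.23 ± 0.523 in Tnfr2-/- libraries (SD, n = 10). It was called in all 20 fits without 1 library, with values from -1.93 to -1.54, and with the mouse as a block (adjusted p = 0.0166). It was not called on means per mouse (adjusted p = 0.130) or without Tnfr2-/- mouse 1 (-1.53, adjusted p = 0.123) or Tnfr2-/- mouse 2 (-1.91, adjusted p = 0.0768). On the late days the difference was -2.04 (SE 0.546, adjusted p = 0.0418, and 0.0608 with the block), and on the early days it was -1.50 (SE 0.446, adjusted p = 0.151, and 0.00448 without WT mouse 2, at -2.12). Without WT mouse 1 the early difference was -0.88. The late call was lost in 13 of 20 fits without 1 library, which comprised all 10 Tnfr2-/- libraries, WT mouse 1 on day 5 and WT mouse 2 on days 5 and 7, with values from -2.72 to -1.36 over the 20 fits, and without Tnfr2-/- mouse 1 (-1.79, adjusted p = 0.432) or mouse 2 (-2.29, adjusted p = 0.342). Without WT mouse 1 or WT mouse 2 it stayed called, at -2.92 and -1.16. A pseudocount of 0.1 (-2.57, adjusted p = 0.0559), no filter on low values (0.0774) and means per mouse (0.326) also ended the late call. Over all days, 6 of 24 fibroblast markers were higher and 0 lower in Tnfr2-/- cultures, against the 7.6% of all genes called. Both immune markers tested and 4 of 20 epithelial markers were also higher. With the fibroblast score as a covariate, Sfrp1 was called lower over all days, while the late difference was -2.64 and not called (adjusted p = 0.0501). The part of fibroblast content in the difference was not tested beyond that covariate.

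Dkk2 (chr3:132085292-132180304, plus strand), an antagonist or partial agonist at LRP depending on context, was lowest in a single mouse. On the 5 days it stood at 5.08, 6.89, 6.62, 2.73 and 3.06 in WT mouse 1 and at 3.65, 8.51, 13.8, 8.57 and 14.5 in WT mouse 2. Tnfr2-/- mouse 1 gave 0.435, 0.722, 0.768, 3.22 and 4.49, and Tnfr2-/- mouse 2 gave 4.09, 3.40, 5.56, 3.36 and 8.83. Tnfr2-/- mouse 1 was below all other mice on days 1 to 3, and both Tnfr2-/- mice lay below both WT mice on 2 of 5 days. The difference over all days was -0.97 (SE 0.347, adjusted p = 0.101), and on the early days it was -1.42 (SE 0.462, adjusted p = 0.190), so neither was called. Without the WT mouse 1 library of day 7 the difference over all days was -1.17 (adjusted p = 0.0332). Leaving out a mouse, it lay between -1.57 without Tnfr2-/- mouse 2 and -0.38 without Tnfr2-/- mouse 1, and the early one between -2.27 and -0.58 in the same fits. Both were called with the fibroblast score as a covariate, at -1.48 (adjusted p = 0.00169) and -1.55 (adjusted p = 0.0107).

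Dkk3 (chr7:112116017-112159057, minus strand), the divergent member of its family, for which binding to LRP is not established, was the most abundant of these 3 inhibitors. It stood at 26.6, 18.4, 9.09, 6.88 and 9.99 in WT mouse 1 and at 40.9, 35.5, 17.6, 21.7 and 26.1 in WT mouse 2. The values of Tnfr2-/- mouse 1 were 28.3, 22.7, 15.4, 15.7 and 46.7, and those of Tnfr2-/- mouse 2 were 39.0, 32.4, 28.0, 19.9 and 43.8. All mice fell from day 1 to day 3, and on day 7 both Tnfr2-/- mice lay above both WT mice. The difference was 0.53 over all days (SE 0.242, adjusted p = 0.202) and 0.95 on the late days (SE 0.377, adjusted p = 0.152). Without WT mouse 2 both were called, at 1.06 (adjusted p = 0.00917) and 1.66 (adjusted p = 0.00608), and the late difference was also called without the WT mouse 2 library of day 5 (1.33, adjusted p = 0.0375). Without WT mouse 1 they were 0.01 and 0.24, the lowest of the fits without 1 library or mouse. Late against early it fell by 0.61 in WT (adjusted p = 0.237, 0.0151 in the blocked fit and 0.108 on means per mouse), with -0.92 in WT mouse 1 and -0.30 in WT mouse 2, and from -0.99 to -0.23 in the fits without 1 library or mouse. In Tnfr2-/- cultures the value was 0.09 (adjusted p = 0.889), and -0.48 (adjusted p = 0.0448) with the fibroblast score as a covariate.

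To ask which genes moved with which cell type, each gene was correlated with the fibroblast and the epithelial score over the 20 libraries. A gene was said to follow a score where its Pearson r with it was at least 0.5, exceeded its r with the other score by at least 0.5, and was above 0 within each of the 4 mice. These r are descriptions with no p, since the libraries came from 4 mice, and the scores themselves correlated at -0.331. The rule caught 12 of the 24 fibroblast markers and 12 of the 20 epithelial markers, and so misses many genes of either type. Of all genes tested, 3.57% followed the fibroblast score and 11.7% the epithelial score. Among the 8 genes, 1 followed the fibroblast score, Dkk3, 0 followed the epithelial score and 7 followed neither.

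Dkk3 had an r of 0.866 (Spearman rho 0.732) with the fibroblast score and -0.621 with the epithelial score. Within the mice its r with the fibroblast score was 0.994 in WT mouse 1, 0.0542 in WT mouse 2, 0.843 in Tnfr2-/- mouse 1 and 0.479 in Tnfr2-/- mouse 2, and without the 2 libraries farthest from the median score it was 0.810. Wnt5a came next at 0.696 (rho 0.595), and 0.519 without those 2 libraries, but in WT mouse 2 its r was -0.301, against 0.583 to 0.911 in the other mice. Dkk2 had an r of only 0.380 (rho 0.529) over all libraries, yet within every mouse it lay between 0.512 and 0.874. With WT mouse 1 left out, Dkk2 met the rule beside Dkk3, without WT mouse 2 Wnt5a did, and without Tnfr2-/- mouse 2 no gene did. With Spearman's rho in place of r, Dkk2 met it and Dkk3 did not.

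Rspo3 had a negative r with the epithelial score in every mouse, as had Dkk3 (-0.895 to -0.401). For Rspo3 the r was -0.668 (rho -0.478) with that score and 0.546 (rho 0.453) with the fibroblast score, and within the mice it lay between -0.958 and -0.792 with the epithelial score. With the fibroblast score it was 0.628 and 0.233 in WT mouse 1 and Tnfr2-/- mouse 1 but -0.615 and -0.668 in WT mouse 2 and Tnfr2-/- mouse 2. Sfrp1 had an r near 0 with both scores (-0.210 and 0.0123), as did Wnt6 (0.215 and -0.101) and Rspo1 (0.252 and 0.163), but the mice differed. Sfrp1 had an r with the epithelial score of 0.981 in WT mouse 2 and -0.561 in WT mouse 1, and Wnt6 had 0.909 in WT mouse 2 and -0.333 to 0.134 in the others. For Rspo1 the r with the fibroblast score was 0.656 and 0.803 in the Tnfr2-/- mice and -0.398 and -0.252 in the WT mice. Wnt7b had an r of 0.122 with the fibroblast and -0.386 with the epithelial score. None of the 8 genes had an r above 0.163 with the epithelial score.

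Each library was also expressed as its deviation from the mean of its genotype and day, which compares only the 2 mice of a group. The condition within each mouse was not applied here, so the rule was looser. By the remaining conditions 5 of 8 genes followed the fibroblast score, against 16% of all genes tested. Neither share compares with those of the whole rule. The deviations of 2 mice mirror each other, so that this setting rests on 1 pair of mice per genotype. The 5 genes were Dkk3 (r = 0.942), Rspo3 (0.894), Wnt5a (0.848), Dkk2 (0.830) and Wnt6 (0.596). Without the 2 farthest libraries, WT mouse 1 on day 5 and Tnfr2-/- mouse 2 on day 7, 0 of 8 met the whole rule.

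**Figure D3:**
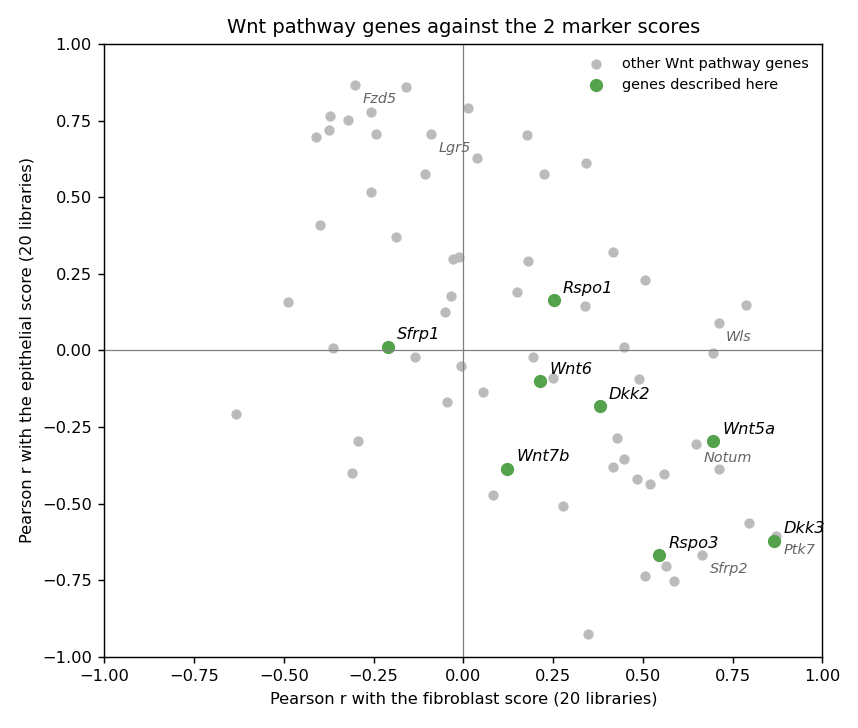
Pearson r of each gene with the epithelial score (vertical) against its r with the fibroblast score (horizontal) over 20 libraries, for the 8 genes tested (green) and the other Wnt pathway genes tested (grey). Dkk3, Wnt5a and Rspo3 lie at the lower right, with r of 0.546 to 0.866 with the fibroblast score, and none of the 8 lies near the receptors Fzd5 and Lgr5, which have r of 0.866 and 0.705 with the epithelial score.

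**Figure D4:**
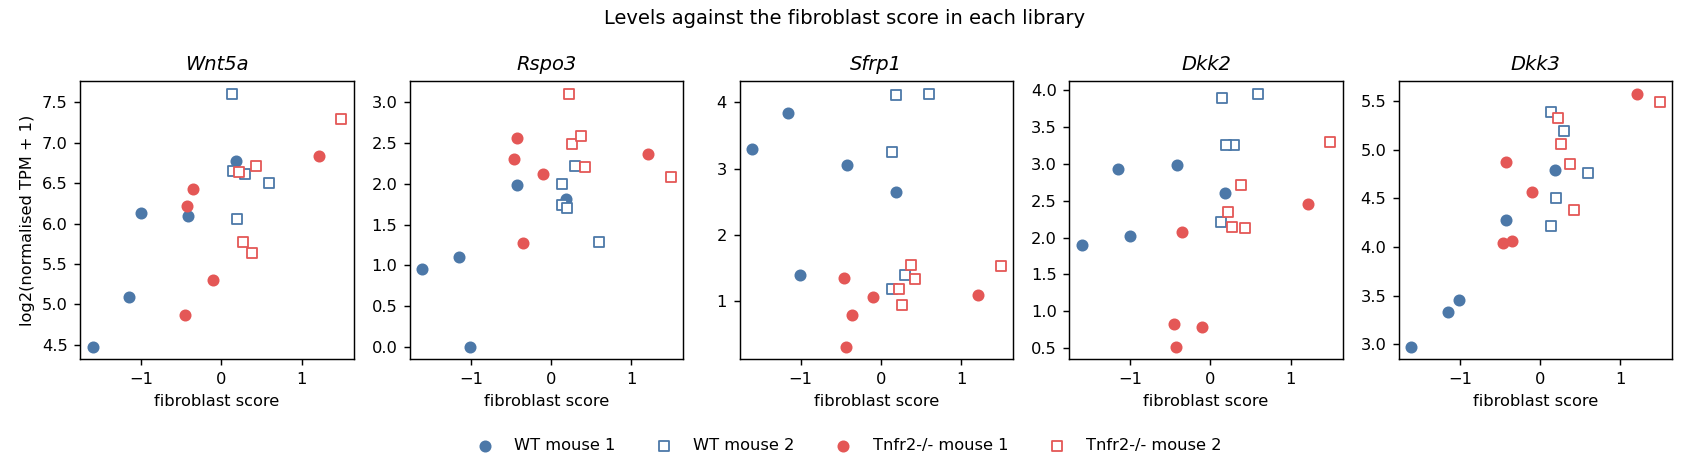
log2(normalised TPM + 1) of 5 of the genes against the fibroblast score, with 1 point per library (blue, WT; red, Tnfr2-/-; filled circles, mouse 1; open squares, mouse 2). Dkk3 rises along the score (r = 0.866), whereas Sfrp1 has no such course (r = -0.210) and its highest values are all from WT libraries.

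The genes most like each of the 8, by Pearson r over the 20 libraries, differed from gene to gene. For Wnt5a they were Plod2, a collagen lysyl hydroxylase (r = 0.947), Filip1l (0.932) and Tmx4 (0.923). For Dkk3 they were Gpc1, a glypican (0.968), Colec12 (0.953) and Rcn2 (0.936). For Sfrp1 they were Npr3 (0.932), Abi3bp, a matrix protein (0.918), and Gm9755 (0.889). For Dkk2 they were Wnt10a (0.885), Sp140 (0.842) and Eln, which encodes elastin (0.830).

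For Rspo3 the most alike were Ism1 (0.878), Gpnmb (0.864) and Nbl1, a secreted BMP antagonist (0.864). For Wnt7b they were Krt6a, a keratin of stratified and stressed epithelia (0.897), Ptpn14 (0.871) and Prrg4 (0.870). The lower genes had weaker partners, with Rpgrip1l (0.697), Pcbp3 (0.672) and Slco1a6 (0.672) for Wnt6 and Tmem14a (0.745), Fhad1 (0.741) and Neu1 (0.699) for Rspo1. Among the 8 themselves the highest r was 0.728, between Rspo3 and Dkk3, followed by 0.702 between Wnt5a and Dkk3 and 0.643 between Sfrp1 and Dkk2. The lowest was -0.450, between Rspo3 and Sfrp1.

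The rest of the Wnt pathway gives the setting of these messages. Of 14 other Wnt ligands 5 were tested, Wnt1, Wnt3a, Wnt8a and Wnt9b were listed at 0 in all libraries, and the 14 together summed to between 9.86 and 38.6, less than Wnt5a alone on average. Of all genes tested, 7.6% were called over all days and 6.45% on the late days. Wnt11 was higher in Tnfr2-/- cultures on the late days (1.34, SE 0.313, adjusted p = 0.0235), and 0 of 5 differed over all days. Of 5 other R-spondins and secreted inhibitors tested, Notum, an enzyme that removes the lipid of Wnt ligands, was higher over all days (1.34, SE 0.254, adjusted p = 0.00397), and Frzb, an SFRP relative, was lower (-0.67, SE 0.183, adjusted p = 0.0332, and 0.0685 with the mouse as a block). Sfrp2 averaged 64.1 ± 33.9 in WT and 64.2 ± 30.6 in Tnfr2-/- libraries, above Sfrp1 in level (SD, n = 10). Rspo4 averaged 16.8 ± 10.6 and 9.25 ± 5.3, above Rspo3 in level, and neither gene was called over all days. The 2 Wnt secretion genes, Wls and Porcn, were not called in any comparison. Wls, the carrier that Wnt ligands need to leave the cell, averaged 143 ± 31.4 (SD, n = 20). The call of Notum was kept in all 20 fits without 1 library, while that of Wnt11 was lost in 6 and that of Frzb in 8. On means per mouse none of these calls held (adjusted p = 0.374 for Notum).

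Against the 7.6% of all genes called over all days and 6.45% on the late days, 1 of 19 receptors tested was higher and 1 lower in Tnfr2-/- cultures over all days, namely Kremen1, a DKK receptor (0.44, SE 0.106, adjusted p = 0.0170), and Ror1, a WNT5A receptor (-0.80, SE 0.222, adjusted p = 0.0351, and 0.0691 with the mouse as a block). On the late days Kremen1 was higher (0.73, adjusted p = 0.0143) and Rnf43, the ligase that R-spondins restrain, was lower (-0.46, adjusted p = 0.0343). Of 19 target genes tested, Notum was higher and Tnfrsf19 lower over all days (-1.18, SE 0.259, adjusted p = 0.0109), and Tnfrsf19 was lower on the late days too (-1.83, adjusted p = 0.0147). Of 17 signal transduction genes, 0 differed over all days. Without 1 library, the calls over all days of Kremen1 and Tnfrsf19 were kept in all 20 fits and that of Ror1 was lost in 14, and the late calls of Kremen1, Rnf43 and Tnfrsf19 were lost in 3, 8 and 2. On means per mouse none of these receptor and target calls held (adjusted p = 0.403 for Kremen1 and 0.264 for Tnfrsf19 over all days). None of the genes of these lists was called for the early genotype difference or for the late minus early difference in genotype effect.

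Late against early, the lists are set beside the 20.1% of all genes called in WT and the 20.3% called in Tnfr2-/- cultures. In WT cultures 4 of 19 receptors rose and 1 fell, with Lgr5, the R-spondin receptor of crypt stem cells, up by 1.99 (SE 0.329, adjusted p = 0.00135), Lgr4 by 0.79 (adjusted p = 0.00598) and Rnf43 by 0.36 (adjusted p = 0.0329), while Ryk, a WNT co-receptor, fell by 0.43 (adjusted p = 0.0423). In Tnfr2-/- cultures 5 of 19 rose and 0 fell, led by Lgr5 (2.15, adjusted p = 0.000728), the co-receptor Lrp6 (0.50, adjusted p = 0.00345) and Kremen1 (0.54, adjusted p = 0.0148). Of the 17 signal transduction genes 2 rose in WT, Ctnnb1, which encodes beta-catenin (0.59, adjusted p = 0.00231), and Tcf7l2 (0.73, adjusted p = 0.0475). In Tnfr2-/- cultures 5 rose, led by Ctnnb1 (0.53, adjusted p = 0.00415), Csnk1a1 (0.38, adjusted p = 0.00801) and Bcl9 (0.85, adjusted p = 0.0165). Of the secreted inhibitors Frzb rose in Tnfr2-/- cultures (0.72, adjusted p = 0.0476), a call lost in 12 of 20 fits without 1 library. In WT the calls of Ryk and Tcf7l2 were lost in 15 and 18 such fits and that of Rnf43 in 7, while those of Lgr5 and Ctnnb1 were kept in all 20 in both genotypes. On means per mouse the calls of Rnf43, Ryk and Tcf7l2 in WT and of Lrp6, Kremen1, Csnk1a1 and Frzb in Tnfr2-/- cultures were lost (adjusted p from 0.0543 to 0.101).

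Target genes did not move together. In WT cultures 5 rose, led by Sox9 (0.88, adjusted p = 0.000999), Lgr5 and Rnf43, and Ccnd1, a cyclin of the G1 phase, fell by 0.57 (adjusted p = 0.0127), a call lost without the WT mouse 1 library of day 5 (-0.37, adjusted p = 0.0556) or day 7 (adjusted p = 0.0611). In Tnfr2-/- cultures Lgr5 and Sox9 rose (Sox9 by 0.60, adjusted p = 0.00783), while Ccnd1 fell by 1.12 (adjusted p = 0.000224) and Myc fell by 0.57 (adjusted p = 0.00377). Epcam and Cdh1, epithelial adhesion genes, rose late in both genotypes, Epcam by 1.33 in WT (adjusted p = 8.35e-05) and 1.57 in Tnfr2-/- cultures (adjusted p = 4.23e-05).

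By the same rule as above, 5 of the 19 receptors followed the epithelial score and 2 the fibroblast score, as did 5 and 0 of the 17 signal transduction genes and 6 and 1 of the 19 target genes, beside 11.7% and 3.57% of all genes tested. Of the 5 other ligands, the 5 other R-spondins and secreted inhibitors and the 2 secretion genes, 4 followed the fibroblast score and 0 the epithelial score. Named after their values were seen, the highest r with the epithelial score among the receptors were those of Fzd5 (0.866), Lgr4 (0.764) and Lrp5 (0.752). The secreted genes that followed the fibroblast score were Wnt9a (0.697), Wnt10a (0.559), Sfrp2 (0.666) and the secretion gene Wls (0.712).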

How the data were processed

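Per the labels, crypts were cultured in Matrigel, colonoids were passaged and seeded through a mesh, and stranded mRNA libraries were read as single-end 75-base reads, 20 in all. The authors pseudoaligned reads with kallisto to mm10 transcripts and normalised with sleuth. The deposited signal is TPM divided by a size factor per library, and sums to between 900655 and 1111080. Columns with the authors' own test results (p-values, q-values, fold terms and variances) were not used. Of 113974 lines, 781 exact repeats were dropped, and 199 transcripts without a symbol (at most 0.0989% of a library) were left out. The pipeline shares reads among similar transcripts by estimate, and no counts were used.

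Values were summed per symbol and analysed as log2(value + 1) for the 13539 genes with a mean of at least 1. On this scale fold changes of low genes are understated. Linear models came from limma (version 3.58.1, R 4.3.3), with the prior variance allowed to follow the mean level. Tests were two-sided and adjusted by the Benjamini-Hochberg method over all genes tested, with a threshold of 0.05. Genotype over all days was fitted beside day as a factor. The other contrasts came from a fit of 10 group means. The replicate number in the labels names the mouse, so days of a genotype are paired by animal, and WT and Tnfr2-/- mice of the same number are different animals. Deviations from group means of the days of a mouse correlated at 0.0997 to 0.307 in WT and -0.0511 to 0.0800 in Tnfr2-/- mice. Because the libraries of a mouse are repeated samples, p-values over several days can be too small for genotype and too large within a mouse. The alternatives were pseudocounts of 0.1 and 5, no filter, rescaled and quantile-normalised values, the mouse as a block, means per mouse, the fibroblast score as a covariate, and leaving out each library or mouse. The 10 genes and all lists were chosen with earlier results of these data known. Named besides the 10 genes were up to 3 called genes per direction of each pathway list by adjusted p, the 3 genes most like each gene tested, set marker genes and Tnfrsf1b. Coordinates and sequences are from GENCODE M21 (GRCm38).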

Additional observations from a re-analysis of the deposited data

Results flagged for a closer look

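The change of Wnt5a from the early to the late days differed in direction between genotypes, and for this it is listed here. Both WT mice were lower late (-0.68 and -0.68 on the log2 scale) and both Tnfr2-/- mice were higher late (1.17 and 0.98). The difference of the changes was 1.76, and it was tested directly, with an adjusted p of 0.182 (limma), 0.0938 with the mouse as a block and 0.0921 on means per mouse, so that it did not pass the threshold over all genes in these fits. It passed without the WT mouse 2 library of day 5, at 2.15 (adjusted p = 0.0447), and was lowest, at 1.36, without the WT mouse 1 library of day 5. With the fibroblast score as a covariate it was not called. The summed level of the fibroblast markers on the late days ran from 6290 to 14690 in Tnfr2-/- and from 2323 to 8382 in WT libraries, and its part in the result was not tested beyond that covariate. Groups of 2 libraries are too small for a check of single outlying samples.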

How the results depend on the processing

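With 2 mice per genotype, calls over all days count several libraries of an animal, and means per mouse leave 2 against 2. With means per mouse the genotype comparison over all days called 0 of the 8 genes and 7 genes in all, the early one 3 genes, the late one 0 of 8 and 0 genes (1896 at an unadjusted p under 0.05, limma), the difference between late and early 1 gene, and the late against early comparisons 1728 genes and 1 of 8 in WT and 1790 genes in Tnfr2-/- cultures. With the replicate block by mouse, which pairs the days of an animal, counts were 545 genes and 1 of 8 over all days, 0 of 8 late, 47 genes for the difference and 4 of 8 for WT late against early. The block ended the calls of Rspo3 over all days (adjusted p = 0.0563), of Sfrp1 on the late days (0.0608), of Frzb (0.0685) and of Ror1 (0.0691). Besides those named here and in the results, it changed no call of the 8 genes.

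A pseudocount of 0.1 left 1 of 8 over all days, 0 of 8 late and 10 genes for the difference. Over all days and late, the main fits called 2 of 8 and 1 of 8, beside 7.6% and 6.45% of all genes. Where no count of all genes is given for a setting, here or above, its count of the 8 genes cannot be set against the background of that fit. Without a filter there were 0 of 8 late and 0 of 8 for Tnfr2-/- late against early, where the main fits called 6.45% and 20.3% of all genes. There were 55 genes for the difference. For Tnfr2-/- late against early, rescaling to the same sum gave 0 of 8, beside 2824 genes in all, and quantile normalization gave 0 of 8. For WT late against early, where the main fit called 20.1% of all genes, quantile normalization gave 1 of 8. It gave 35 genes for the difference. With the fibroblast score as a covariate there were 357 genes and 2 of 8 early, 318 genes and 0 of 8 late, and 9 genes for the difference. Late against early there were 1 of 8 for WT and 2 of 8 for Tnfr2-/- cultures, where Dkk3 turned to -0.48. The main fits called 20.1% and 20.3% of all genes there. On deviations from group means, without the condition within each mouse, 5 of 8 followed the fibroblast score, against 16% of all genes. By the whole rule, without the 2 farthest libraries, 0 did. Causes were not tested.

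Leaving out 1 library or mouse, called genes ranged from 146 to 1931 over all days (0 to 3 of the 8), 14 to 720 early (0 to 1), 19 to 2186 late (0 to 5), 0 to 136 for the difference (0 to 1), 1043 to 2893 for WT (0 to 2) and 2 to 3430 for Tnfr2-/- late against early (0 to 1). The 0 for the difference arose without Tnfr2-/- mouse 1 or mouse 2, with 718 and 968 genes at an unadjusted p under 0.05 (limma), where the remaining mouse was assumed to vary like the others. Leaving out a mouse, 0 to 2 followed the fibroblast and 0 to 0 the epithelial score. Over all days the sign turned for Wnt5a (-0.52 to 0.46), Wnt6 (-0.53 to 0.056), Wnt7b (-0.19 to 0.61) and Rspo1 (-0.57 to 0.52), and it turned for Dkk3 in Tnfr2-/- late against early (-0.14 to 0.33). Of the values of single genes under these leave-outs, 1042 kept their direction and their side of the threshold, 193 lost the call, 14 gained it and 23 changed sign.

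The calls of other pathway genes that were kept in all 20 fits without 1 library were those of Notum, Kremen1 and Tnfrsf19 over all days, Ctnnb1, Lgr4, Lgr5 and Sox9 in WT, and Ccnd1, Csnk1a1, Ctnnb1, Lgr5, Lrp6, Myc and Sox9 in Tnfr2-/- cultures. Without a whole mouse, the calls over all days of Kremen1, Tnfrsf19 and Notum were lost in 3, 2 and 1 of 4 fits, and on means per mouse all 3 were lost. The late calls of Kremen1, Rnf43 and Wnt11 were also lost with the fibroblast score as a covariate (adjusted p = 0.126, 0.118 and 0.119). The differences were then 0.49, -0.48 and 1.30, against 0.73, -0.46 and 1.34 in the main fit. Without WT mouse 1 the late against early calls in WT of Lgr4 (0.56, adjusted p = 0.114) and Sox9 (0.78, adjusted p = 0.0728) were lost, and the value of Tcf7l2 was 0.30. Leaving out either Tnfr2-/- mouse ended the late against early calls of the Wnt pathway genes named in Tnfr2-/- cultures and of Wnt5a. Marker genes were not refitted this way.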
